A study of Mus musculus with 16 samples.

Results

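Haematopoietic stem cells (HSCs), the bone marrow cells that renew the blood, are recognised by a small set of surface proteins, and 9 genes of that set were followed here across 16 RNA-seq libraries of sorted mouse HSCs. The 9 genes were chosen by name, 9 of the 50686 genes in the deposited tables. They are Kit, Ly6a, Slamf1 and Cd48, which encode the 4 surface proteins stained for the sort (CD117, Sca-1, CD150 and CD48), and Procr, Cd34, Flt3, Tek and Esam, surface receptors and adhesion proteins used to tell stem cells from other progenitors. All 9 were detected in all 16 libraries and all 9 passed the filter on low counts.

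The libraries came from C57BL/6J mice given 1 of 4 treatments by intraperitoneal injection every 48 h for 85 days. The combination group received palbociclib and rapamycin together, the palbociclib group palbociclib at 30.4 mg/kg, the rapamycin group rapamycin at 6.4 mg/kg, and the vehicle group the solvent of 20% DMSO and 40% PEG 400 in PBS that all mice received. Palbociclib blocks CDK4 and CDK6, the cyclin D kinases needed to leave G1, and rapamycin blocks mTOR, a kinase that promotes cell growth when nutrients are present. Each group had 4 libraries, each made from 10000 cells in G0/1 sorted after lineage depletion. The labels give neither age nor sex and do not say that each library was a separate mouse, so p-values measure the spread between libraries, which may be technical.

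In mouse marrow, Kit and Sca-1 together mark the immature compartment, and within it CD150 without CD48 marks cells enriched for HSCs, while CD34 and Flt3 appear on progenitors that have begun to lose self-renewal. EPCR (from Procr), TIE2 (from Tek) and ESAM are further markers of the stem cell end of the hierarchy. The protocol names the stained proteins and not the directions of the gates. Because cells were chosen by the proteins of Kit, Ly6a, Slamf1 and Cd48, the presence of their RNA is no finding, and their levels are given as a description.

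The libraries held 10133860 to 15328830 counts each and 16570 to 20418 genes above 0. The HSC identity genes Hlf, Mecom, Fgd5, Hoxb5, Ctnnal1 and Mllt3, transcription factors and other genes typical of HSCs, all had counts in all 16 libraries, and the lowest count of any of the 6 in any library was 51. Libraries differed in lists of genes named for other cell types. The list for neutrophils includes granule genes that myeloid progenitors also express, so its share does not tell these cells apart. A list of 15 neutrophil genes held 1.03% to 6.24% of counts in combination libraries, 1.22% to 9.20% in palbociclib libraries, 0.808% to 5.81% in rapamycin libraries and 1.22% to 6.36% in vehicle libraries, with all 15 detected in each group. A list of 9 B cell genes held at most 0.00702% in combination libraries, 0.0441% in palbociclib libraries, 0.0164% in rapamycin libraries and 0.356% in vehicle libraries, with all 9 detected in each group. In bulk samples, fewer cells of a type and less RNA per cell cannot be told apart. The libraries vehicle 4, vehicle 3 and rapamycin 3 stood furthest from the rest, with median correlations with the other libraries of 0.889, 0.891 and 0.897 in log2 CPM.

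The genes lie on 6 chromosomes in the GENCODE M21 annotation of GRCm38, and 3 of them are on chromosome 1. Cd48 (ENSMUSG00000015355, chr1:171682009-171705258, plus strand) and Slamf1 (ENSMUSG00000015316, chr1:171767127-171801184, plus strand) are neighbours in the SLAM cluster of immune receptors, with gene starts 85.1 kb apart. Cd34 (ENSMUSG00000016494) lies on the plus strand at chr1:194938819-194961279. Kit (ENSMUSG00000005672) lies at chr5:75574916-75656722 on the plus strand and Flt3 (ENSMUSG00000042817) at chr5:147330741-147400489 on the minus strand. Ly6a (ENSMUSG00000075602, chr15:74994877-74998031, minus strand) is part of a cluster of similar Ly6 genes, so its estimated counts may share reads with them and are uncertain to that extent. Procr (ENSMUSG00000027611) is at chr2:155751117-155755471, Tek (ENSMUSG00000006386) at chr4:94739289-94874976 and Esam (ENSMUSG00000001946) at chr9:37528078-37538319, all on the plus strand.

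The results below turn on a pair of genes that varied in opposite directions between libraries, Slamf1 and Cd48, and on a pair that varied together, Cd34 and Flt3. The 250 bases before the RefSeq start of each are therefore shown 5′ to 3′ on the strand of the gene, from RefSeq on GRCm38.p6. They are chr1:171766882-171767131 for Slamf1, chr1:171681742-171681991 for Cd48, chr1:194938571-194938820 for Cd34 (all plus strand) and chr5:147400490-147400739 for Flt3 (minus strand). Capitals mark a match to any of the 7 motifs searched on both strands.
Slamf1: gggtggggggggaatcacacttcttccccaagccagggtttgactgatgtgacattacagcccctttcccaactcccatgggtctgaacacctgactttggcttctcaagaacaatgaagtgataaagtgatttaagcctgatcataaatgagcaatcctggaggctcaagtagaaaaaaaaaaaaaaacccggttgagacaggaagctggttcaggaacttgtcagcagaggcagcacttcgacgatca
Cd48: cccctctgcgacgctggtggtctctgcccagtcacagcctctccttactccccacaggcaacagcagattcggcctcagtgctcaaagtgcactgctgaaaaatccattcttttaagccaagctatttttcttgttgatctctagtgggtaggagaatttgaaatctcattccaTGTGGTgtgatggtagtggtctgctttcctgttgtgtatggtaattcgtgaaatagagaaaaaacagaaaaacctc
Cd34: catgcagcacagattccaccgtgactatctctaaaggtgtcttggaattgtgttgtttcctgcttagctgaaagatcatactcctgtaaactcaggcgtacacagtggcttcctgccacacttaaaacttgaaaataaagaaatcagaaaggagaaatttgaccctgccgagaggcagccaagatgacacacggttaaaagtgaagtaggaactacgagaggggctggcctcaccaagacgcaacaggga
Flt3: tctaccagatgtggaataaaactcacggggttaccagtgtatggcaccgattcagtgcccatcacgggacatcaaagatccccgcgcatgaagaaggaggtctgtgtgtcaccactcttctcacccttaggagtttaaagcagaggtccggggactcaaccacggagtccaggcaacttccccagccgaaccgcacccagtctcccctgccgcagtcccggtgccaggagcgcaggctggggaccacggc
The Cd48 stretch holds 1 match to the RUNX motif TGTGGT, at -76 from the start, which 14.0% of 32851 mouse promoter windows of the same length also hold on either strand. That RefSeq start lies upstream of the GENCODE start of Cd48, so the offset holds for the RefSeq start only. The first bases after it were not found in GENCODE transcripts of Cd48, while those of Slamf1, Cd34 and Flt3 were found in theirs. The Slamf1, Cd34 and Flt3 stretches hold no match to it or to the motif of GATA factors with the letters AGATAA (in 9.99% of windows), the ETS motif with the letters GAGGAA (23.3%), the E-box with the letters CAGCTG (13%), the GAS element with the letters TTCNNNGAA (7.02%), the ISRE (2.98%) or the SP motif with the letters GGGCGG (32.7%). Of the 7 genes matched in the table, Kit holds an ETS match at -223 and an SP match at -98, Procr an E-box at -34, and Tek none. These are matches of letters and not sites. The share of G and C was 59.2% for Flt3 and 46.0% to 47.2% for the other shown stretches.

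The levels of the 9 genes were set beside each other in TPM, which is per transcript length. Ly6a was the most abundant, at 595 ± 376 TPM (SD, n = 16 libraries), followed by Cd34 at 231 ± 94.6 TPM. Esam at 99.0 ± 31.6 TPM, Procr at 89.7 ± 37.1 TPM and Kit at 83.6 ± 39.7 TPM formed a middle level. Their ranges overlapped, and differences between them were not tested. Cd48 at 24.7 ± 16 TPM and Flt3 at 23.1 ± 11.9 TPM were alike, as were Slamf1 at 12.8 ± 6.04 TPM and Tek at 12.5 ± 6.77 TPM.

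The order of neighbouring genes held in 8 to 15 of the 16 libraries. Ly6a exceeded Cd34 in 15 of 16 libraries, and Cd34 exceeded Esam in 15 of 16. Esam exceeded Procr in 12 of 16 libraries, Kit exceeded Cd48 in 13 and Flt3 exceeded Slamf1 in 13. Cd48 exceeded Flt3 in 9, Procr exceeded Kit in 8 and Slamf1 exceeded Tek in 8. Even the least abundant, Tek, was above 76.8% of the 31267 genes detected in any library, by mean TPM. Cd48 and Ly6a varied most between libraries, with coefficients of variation of 64.5% and 63.2%, and Esam least, at 31.9%.

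**Figure D1:**
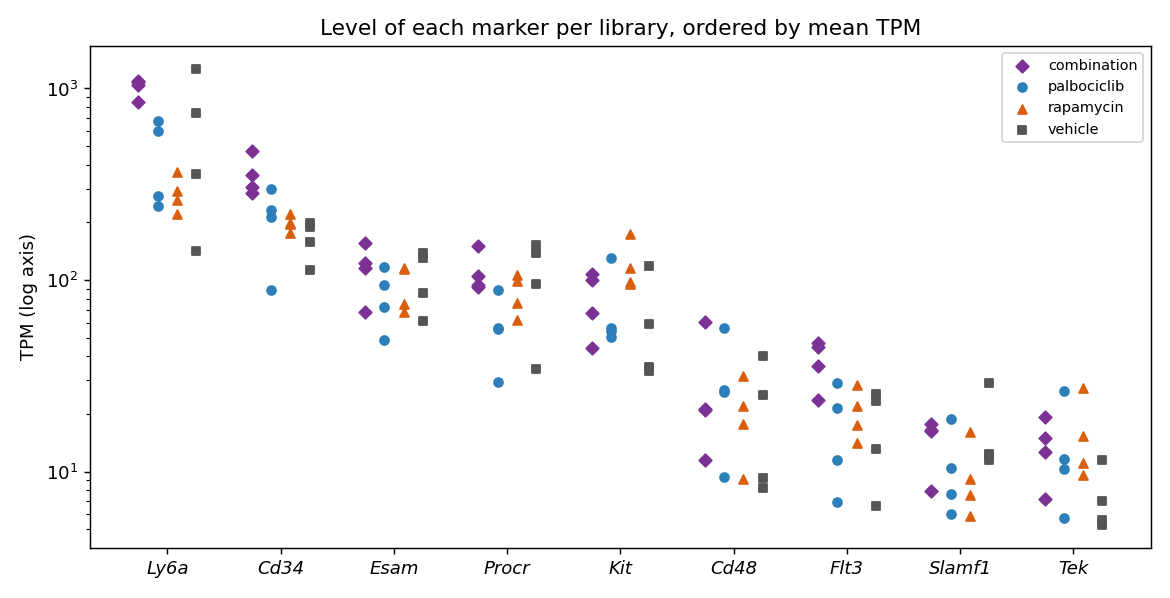
Level of each of the 9 genes in TPM (log axis) in each of the 16 libraries, by group, with a point for each library and genes in order of mean TPM. Ly6a and Cd34 stand highest and Slamf1 and Tek lowest, and the combination libraries sit in the upper part of the Cd34 and Flt3 ranges.

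Across the 5 comparisons of groups, none of the 9 genes passed an adjusted p of 0.05 in edgeR's quasi-likelihood test over all 16 libraries, fitted to 15308 genes. That test called few genes in all. It called 0.0% of genes for the combination against vehicle, 0.0% for palbociclib against vehicle, 0.00653% for rapamycin against vehicle, 0.0% for the combination against palbociclib and 0.0327% for the combination against rapamycin. An unadjusted p under 0.05 was met by 1 of 9 for the combination against vehicle (10.5% of all genes), 1 of 9 for palbociclib against vehicle (9.51%) and 4 of 9 for rapamycin against vehicle (7.65%). It was met by 4 of 9 for the combination against palbociclib (2.85% of all genes) and 2 of 9 for the combination against rapamycin (9.79%). A count of 1 of 9 is close to the share of all genes and 4 of 9 is above it, but the comparisons share libraries, so the counts are not independent of each other. The genes were also chosen with earlier results of these data known, so the set is not independent of the data.

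Slamf1 encodes CD150, a receptor of the SLAM family that binds itself on neighbouring cells. Its level was 35.1, 37.0, 21.1 and 38.0 CPM (read counts scaled to library size by the TMM method) in the combination libraries and 19.7, 41.7, 15.8 and 25.4 CPM in the palbociclib libraries. It was 32.7, 19.9, 14.1 and 21.4 CPM in the rapamycin libraries and 60.4, 29.5, 30.7 and 32.8 CPM in the vehicle libraries. Vehicle 1 was the highest of all 16, and every pair of groups overlapped. For palbociclib against vehicle and for rapamycin against vehicle, 0 of the 9 genes had groups that did not overlap, against 5.04% and 3.07% of all genes. Slamf1 averaged 22 ± 7.77 CPM in rapamycin libraries and 38.3 ± 14.7 CPM in vehicle libraries (SD, n = 4 each). That log2 difference was -0.80 ± 0.34 (SE), with an unadjusted p of 0.0330 and an edgeR adjusted p of 0.613, and did not pass. The difference for palbociclib against vehicle was -0.58 ± 0.34 (edgeR adjusted p = 0.637), and for the combination against vehicle -0.23 ± 0.34 (adjusted p = 0.888). The combination difference turned to 0.083 without vehicle 1.

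Cd48 encodes a ligand of the SLAM family that is absent from most HSCs and present on many other blood cells. Its level was 18.4, 9.80, 63.4 and 19.8 CPM in the combination libraries and 26.8, 7.76, 57.5 and 24.1 CPM in the palbociclib libraries. It was 7.25, 21.0, 27.8 and 16.3 CPM in the rapamycin libraries and 6.63, 25.8, 8.56 and 45.9 CPM in the vehicle libraries. The highest values were in combination 3, palbociclib 3 and vehicle 4, and all groups overlapped. No log2 difference of Cd48 in the 5 comparisons exceeded its SE of 0.69, and the edgeR adjusted p against vehicle was 0.920 for the combination and 0.890 for palbociclib. The direction turned with 1 library. For the combination against vehicle, the log2 difference of 0.36 was -0.44 without combination 3, and for palbociclib against vehicle 0.42 was -0.14 without palbociclib 3.

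Per length, Cd48 RNA exceeded Slamf1 RNA in 11 of the 16 libraries. The ratio of Slamf1 to Cd48 in TPM was 0.770, 1.54, 0.131 and 0.774 in combination libraries and 0.293, 2.01, 0.107 and 0.394 in palbociclib libraries. It was 1.74, 0.345, 0.185 and 0.512 in rapamycin libraries and 3.51, 0.485, 1.34 and 0.288 in vehicle libraries. Libraries above and below 1 occurred in all 4 groups.

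Ly6a encodes Sca-1, a small lipid-anchored surface protein whose RNA is known to respond to interferon. Its level was 500.0, 619, 793 and 705 CPM in the combination libraries, 172, 157, 477 and 379 CPM in the palbociclib libraries, and 204, 191, 158 and 139 CPM in the rapamycin libraries. The vehicle libraries spanned the widest range, at 199.9, 525, 90.3 and 1006 CPM. All 4 combination libraries stood above all palbociclib and all rapamycin libraries, while the vehicle group overlapped every other group and held both the lowest and the highest value. The mean was 654 ± 125 CPM in combination libraries, 296 ± 157 CPM in palbociclib libraries, 173 ± 29.9 CPM in rapamycin libraries and 455 ± 411 CPM in vehicle libraries.

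Against rapamycin, Ly6a in the combination was 3.78-fold higher, a log2 difference of 1.92 ± 0.54 with an unadjusted p of 0.0027 and an edgeR adjusted p of 0.265, which did not pass. DESeq2 gave an adjusted p of 0.0248, and edgeR fitted to the 8 libraries of these groups alone 1.91 ± 0.19 with an adjusted p of 0.00351, so the call depended on the fit. Over all alternatives the log2 difference stayed between 1.81 and 2.03 and the adjusted p between 0.00351 and 0.579. Groups that do not overlap were found for 8.85% of all genes in this comparison, and for 2 of the 9 genes, Ly6a and Cd34. Against palbociclib, Ly6a in the combination differed by 1.14 ± 0.53 on the log2 scale (unadjusted p of 0.0470, edgeR adjusted p = 1.000). Groups did not overlap for 2 of 9 genes there, Ly6a and Procr, against 3.85% of all genes.

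Against vehicle, the Ly6a values moved with single vehicle libraries. The log2 difference was 0.52 ± 0.53 for the combination (edgeR adjusted p = 0.810), -0.62 ± 0.53 for palbociclib (adjusted p = 0.765) and -1.40 ± 0.53 for rapamycin (unadjusted p = 0.0189, adjusted p = 0.553). Without vehicle 4 the combination difference was 1.27, the palbociclib difference 0.13 and the rapamycin difference -0.65. Without vehicle 3 the combination difference was 0.18. On log2(TPM + 1) in limma the combination difference was 1.11 and the rapamycin difference -0.74. Vehicle 4 also held the largest share of B cell genes, and the part of those cells in its Ly6a level was not tested. The test of the interaction, which asks whether the combination differs from the sum of the single drugs on the log2 scale, gave 2.54 ± 0.75 for Ly6a (unadjusted p of 0.0039, edgeR adjusted p = 0.588). An interaction p under 0.05 was met by 3 of the 9 genes, Ly6a, Procr and Slamf1, against 5.67% of all genes, and none passed after adjustment.

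The Ly6 neighbours of Ly6a were read as a fixed list of 9 genes, 8 of them tested. None passed the test in any of the 5 comparisons, and for the combination against rapamycin 4 were above and 4 below 0, with a median log2 difference of 0.11 against -0.02 for all genes. Ly6e, which encodes another interferon-responsive protein of the family, had 1945 ± 166 CPM in combination libraries and 1043 ± 93.8 CPM in rapamycin libraries, a log2 difference of 0.90 ± 0.26 (edgeR adjusted p = 0.265). Among 11011 protein-coding genes, Ly6e was the gene whose log2 CPM followed that of Ly6a most closely across the 16 libraries, with r = 0.899, and r = 0.853 within groups.

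Interferon-responsive genes were set beside Ly6a as a further list. A list of 11 of them held 0.0626% to 0.111% of counts in combination libraries, 0.0349% to 0.0807% in palbociclib libraries, 0.0350% to 0.0464% in rapamycin libraries and 0.0406% to 0.0426% in vehicle libraries, with all 11 detected in each group. For the combination against rapamycin, 11 of 11 were above 0 with a median log2 difference of 1.51 against -0.02 for all genes, and 1 passed the test. That gene was Irf7, a transcription factor of the interferon response, at 186 ± 87.9 CPM in combination libraries and 33.4 ± 3.82 CPM in rapamycin libraries (log2 difference 2.48 ± 0.40, edgeR adjusted p = 0.0361). For the combination against vehicle, 11 of 11 were above 0 with a median of 1.51 and none passed. Palbociclib against vehicle also had 11 of 11 above 0, with a median of 0.69, while Ly6a was at -0.62 ± 0.53 there. In rapamycin against vehicle 4 were above and 7 below 0, with a median of -0.07, and Ly6a was at -1.40 ± 0.53. Within the vehicle group the interferon share was nearly constant, while Ly6a ran from 90.3 to 1006 CPM. The part of the interferon response in the Ly6a level was not tested.

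Kit encodes CD117, the receptor tyrosine kinase for stem cell factor. Its level was 372, 395, 190.1 and 264 CPM in the combination libraries and 239, 433, 218 and 198 CPM in the palbociclib libraries. It was 587, 394, 379 and 462 CPM in the rapamycin libraries and 399, 235, 127 and 181 CPM in the vehicle libraries. Of the vehicle libraries, vehicle 1 alone lay within the rapamycin range, and the other vehicle libraries were below it. Kit averaged 455 ± 95 CPM in rapamycin libraries and 235 ± 118 CPM in vehicle libraries, a log2 difference of 0.95 ± 0.34 with an unadjusted p of 0.0118 and an edgeR adjusted p of 0.519, which did not pass. Without vehicle 3, vehicle 4 and rapamycin 3, the difference was 0.60. The difference against vehicle was 0.37 ± 0.33 for the combination (edgeR adjusted p = 0.767) and 0.21 ± 0.33 for palbociclib (adjusted p = 0.888), and leaving out those libraries turned both below 0, to -0.050 and -0.22. Without palbociclib 2 alone, the palbociclib difference was -0.11.

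Mast cells also carry Kit. Of a list of 7 mast cell and basophil genes, Tpsb2 and Cma1 had no counts in any of the 16 libraries, and the other 5 were tested. Of these, 4 were above and 1 below 0 for the combination against vehicle, 3 above and 2 below for rapamycin against vehicle, and none passed. Fcer1a had 12.5 to 22.7 CPM in combination libraries and 1.24 to 14.8 CPM in palbociclib libraries. It had 0 to 3.57 CPM in rapamycin libraries and 1.99 to 7.71 CPM in vehicle libraries. The part of such cells in the Kit level was not tested. The summed share of the list was 0.00148% to 0.00753% in combination libraries, 0.000332% to 0.00630% in palbociclib libraries, 0.000797% to 0.00308% in rapamycin libraries and 0.000402% to 0.00504% in vehicle libraries. Averaged over both palbociclib levels, rapamycin against no rapamycin gave Kit a log2 difference of 0.56 ± 0.24 (unadjusted p of 0.0306, edgeR adjusted p = 1.000), the 1 gene of 9 under 0.05 without adjustment, against 4.64% of all genes. The genes whose pattern was closest to Kit were Ccdc8 (r = 0.900), Fam131a (r = 0.894) and Fgd5 (r = 0.885), the last of these on the HSC identity list.

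**Figure D2:**
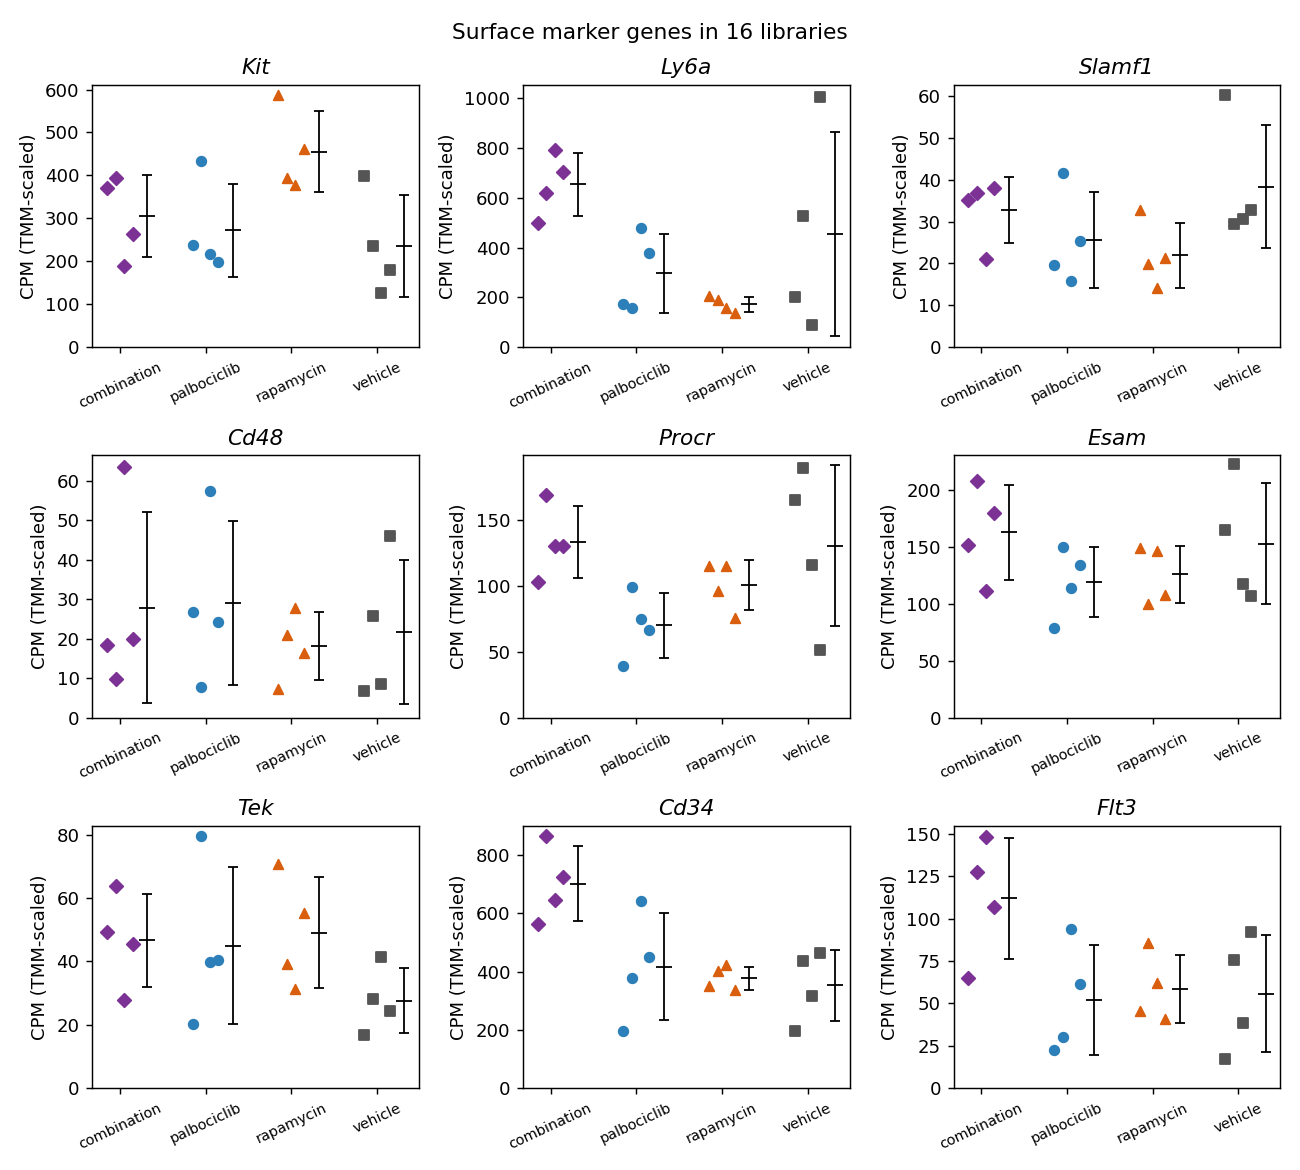
Level of each of the 9 genes in TMM-scaled CPM in each library, by group, with points for libraries and bars for the group mean ± SD (n = 4). All 4 combination libraries stand above all rapamycin libraries for Ly6a and Cd34, and the vehicle libraries of Ly6a run from 90.3 to 1006 CPM.

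Flt3 encodes the receptor tyrosine kinase for FLT3 ligand, which marks multipotent and lymphoid-primed progenitors. Its level was 65, 127, 148 and 107 CPM in the combination libraries and 22.5, 30.3, 93.9 and 61.6 CPM in the palbociclib libraries. It was 45.6, 85.7, 61.9 and 41.0 CPM in the rapamycin libraries and 17, 75.6, 38.4 and 92.2 CPM in the vehicle libraries. The combination held the 3 highest values of all and overlapped each other group through combination 1. Flt3 averaged 112 ± 35.5 CPM in combination libraries and 55.8 ± 34.3 CPM in vehicle libraries, a log2 difference of 1.00 ± 0.49 (unadjusted p of 0.0557, edgeR adjusted p = 0.491) that did not pass. Against palbociclib the combination differed by 1.10 ± 0.49 (unadjusted p of 0.0381, adjusted p = 1.000) and against rapamycin by 0.93 ± 0.49 (adjusted p = 0.564). The single drugs against vehicle gave -0.10 ± 0.48 for palbociclib and 0.07 ± 0.48 for rapamycin, values whose sign turned when 1 of several libraries was left out.

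Cd34 encodes a sialomucin on the surface of progenitors and endothelial cells. Its level was 564, 866, 647 and 725 CPM in the combination libraries and 197, 379.7, 642 and 449 CPM in the palbociclib libraries. It was 349.7, 400.4, 421 and 336 CPM in the rapamycin libraries and 196, 436, 316 and 462 CPM in the vehicle libraries. All combination libraries stood above all rapamycin and all vehicle libraries, and palbociclib 3 lay within the combination range. For the combination against vehicle, Cd34 was the 1 gene of 9 whose groups did not overlap, against 5.56% of all genes.

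Cd34 averaged 701 ± 128 CPM in combination libraries and 352 ± 122 CPM in vehicle libraries, 1.99-fold, with a log2 difference of 0.99 ± 0.30, an unadjusted p of 0.0046 and an edgeR adjusted p of 0.263. It did not pass under any alternative, with adjusted p from 0.0913 to 0.648 and log2 differences from 0.79 to 1.15. Against rapamycin the combination differed by 0.90 ± 0.30 (unadjusted p of 0.0090, edgeR adjusted p = 0.326) and against palbociclib by 0.75 ± 0.30 (unadjusted p of 0.0239, adjusted p = 1.000). The single drugs gave 0.24 ± 0.30 for palbociclib against vehicle and 0.10 ± 0.30 for rapamycin against vehicle, with edgeR adjusted p of 0.852 and 0.983. The first of these was -0.031 without palbociclib 3 and the other -0.10 without vehicle 1. Averaged over both rapamycin levels, palbociclib against no palbociclib gave 0.57 ± 0.21 (unadjusted p of 0.0163, edgeR adjusted p = 0.248), the 1 of 9 genes under 0.05 without adjustment, against 13.8% of all genes. After adjustment 0.274% of all genes were called in that contrast, and none of the 9.

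Tek encodes TIE2, the receptor for angiopoietins, found on HSCs and endothelial cells. Its level was 49.5, 63.7, 27.9 and 45.5 CPM in the combination libraries and 20.4, 79.7, 39.7 and 40.3 CPM in the palbociclib libraries. It was 70.7, 39.1, 31.3 and 55.2 CPM in the rapamycin libraries and 16.7, 28.1, 41.3 and 24.5 CPM in the vehicle libraries. All groups overlapped. The mean was 46.6 ± 14.8 CPM in combination, 45 ± 24.9 CPM in palbociclib and 49.1 ± 17.5 CPM in rapamycin libraries, against 27.6 ± 10.3 CPM in vehicle libraries. The log2 difference from vehicle was 0.75 ± 0.39 for the combination (unadjusted p of 0.0694, edgeR adjusted p = 0.523), 0.70 ± 0.39 for palbociclib (adjusted p = 0.606) and 0.83 ± 0.39 for rapamycin (unadjusted p of 0.0488, adjusted p = 0.645). None passed.

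Endothelial genes held a small share of counts in all libraries and were not at 0 as a list. Their 6 genes together held 0.000890% to 0.00696% of counts in combination libraries, 0.00215% to 0.00362% in palbociclib libraries, 0.00277% to 0.0122% in rapamycin libraries and 0.000414% to 0.00284% in vehicle libraries, with 6 of 6 detected in each group. Those of smallest p for rapamycin against vehicle were Flt4, Kdr and Plvap. Flt4 was at 1.93 to 11.5 CPM in rapamycin libraries and 0 to 0.771 CPM in vehicle libraries. Kdr was at 4.77 to 24.5 and 0 to 4.50 CPM in these groups, and Plvap at 7.44 to 47.9 and 1.43 to 17.8 CPM. For rapamycin against vehicle, 6 of the 6 were above 0, with a median log2 difference of 1.42 against -0.01 for all genes, and none passed. Their part in the level of Tek was not tested.

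Procr encodes EPCR, the receptor for protein C, which is among the most selective markers of HSCs in the mouse. Its level was 103, 169, 129.8 and 130.1 CPM in the combination libraries and 39.4, 99.2, 75.1 and 66.5 CPM in the palbociclib libraries. It was 115, 96.0, 115 and 75.2 CPM in the rapamycin libraries and 165, 189, 116 and 51.6 CPM in the vehicle libraries. The palbociclib libraries were all below the combination libraries and overlapped vehicle through vehicle 4. Procr averaged 70.1 ± 24.7 CPM in palbociclib libraries and 130.5 ± 60.8 CPM in vehicle libraries, a log2 difference of -0.90 ± 0.33 (unadjusted p of 0.0156, edgeR adjusted p = 0.418) that did not pass. The combination differed from palbociclib by 0.92 ± 0.33 (unadjusted p of 0.0133, adjusted p = 1.000) and from vehicle by 0.03 ± 0.33 (adjusted p = 0.992). The interaction was 1.3 ± 0.47 (unadjusted p of 0.0132, edgeR adjusted p = 0.754).

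Esam encodes a cell adhesion molecule of HSCs, platelets and endothelium. Its level was 152, 208, 111 and 179.6 CPM in the combination libraries and 78.7, 149, 114 and 134 CPM in the palbociclib libraries. It was 148, 100.0, 146 and 108 CPM in the rapamycin libraries and 164, 223, 117 and 107 CPM in the vehicle libraries. The groups overlapped throughout. Log2 differences against vehicle were 0.09 ± 0.26 for the combination, -0.36 ± 0.26 for palbociclib and -0.28 ± 0.26 for rapamycin, with edgeR adjusted p of at least 0.714.

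**Figure D3:**
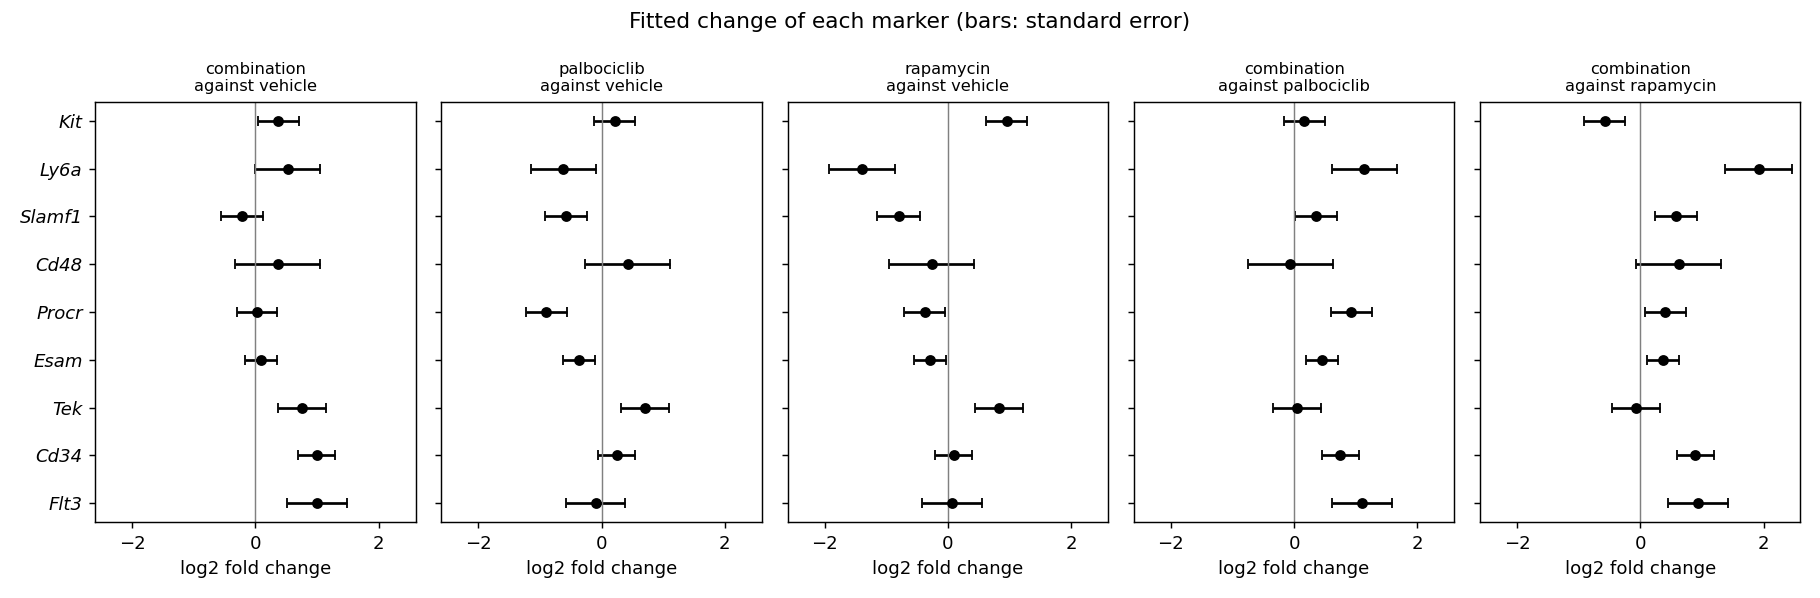
Log2 differences of the 9 genes in the 5 comparisons, from edgeR over 16 libraries, with points for estimates and bars for 1 SE on each side. The combination against rapamycin gives Ly6a 1.92 and Cd34 0.90, rapamycin against vehicle gives Kit 0.95 and Ly6a -1.40, and no gene passed an adjusted p of 0.05.

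Read as a group, the 9 genes had a median log2 difference of 0.37 for the combination against vehicle, -0.10 for palbociclib against vehicle and -0.26 for rapamycin against vehicle. The median of all genes in these comparisons was -0.02, -0.03 and -0.01. The median of the 9 was 0.45 for the combination against palbociclib and 0.57 for the combination against rapamycin, where all genes had -0.01 and -0.02. For each drug alone against vehicle, 4 of the 9 were above and 5 below 0. Of the 9, 8 were above 0 for the combination against vehicle, with Slamf1 the exception, and 8 for the combination against palbociclib, with Cd48 the exception. Among the 8 for the combination against vehicle, Procr (0.027) and Esam (0.089) turned below 0 without vehicle 3, vehicle 4 or combination 2, each left out alone. Cd48 (0.36) was -0.44 without combination 3, and Kit (0.37) was -0.050 without vehicle 3, vehicle 4 and rapamycin 3 together. Among the 8 for the combination against palbociclib, Tek (0.051) turned below 0 without palbociclib 1, palbociclib 3 or combination 2, each left out alone. With the neutrophil share as covariate, Tek and Kit (0.17) were below 0 there.

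How the genes varied together was examined over the 16 libraries for all 36 pairs, as correlations of log2 CPM with permutation p-values adjusted over the pairs, and 5 pairs passed 0.05 for Pearson's r. No batch is given in the labels, so values within groups stand beside the pooled ones. The closest pair was Cd34 and Flt3, with r = 0.914 (permutation p = 2e-05, adjusted p = 0.00072) and Spearman's rho = 0.921 (permutation p = 1e-05, the smallest that 100000 permutations can give). It was 0.831 without the libraries farthest from the median of Cd34, and 0.895 after subtraction of the group means. Across genes, Flt3 was the closest of all to Cd34 but for Cd27 (r = 0.937), which encodes a receptor of the tumour necrosis factor family on progenitors, and Cd34 was the closest of all to Flt3.

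Ly6a went with the same genes. It correlated with Flt3 at r = 0.742 (permutation p = 0.00098, adjusted p = 0.0118; rho = 0.779, p = 0.00054) and with Cd34 at r = 0.713 (permutation p = 0.0017, adjusted p = 0.0149; rho = 0.788, p = 0.00049). Without the farthest libraries these were 0.758 and 0.778, and within groups 0.740 and 0.619. Procr and Esam formed another pair, at r = 0.809 (permutation p = 0.0002, adjusted p = 0.0036) and rho = 0.782 (p = 0.00067), with 0.712 without the farthest libraries and 0.781 within groups.

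Slamf1 and Cd48 ran in opposite directions, with r = -0.666 (permutation p = 0.0053, adjusted p = 0.0384) and rho = -0.691 (permutation p = 0.0040). The value was -0.616 without the farthest libraries and -0.836 within groups, so the opposition held among libraries of the same treatment. Kit and Slamf1 showed r = 0.181 over all libraries, which did not pass (adjusted p = 0.624, permutation), and 0.792 within groups. Cd48 also ran with Flt3 (r = 0.582, permutation, adjusted p = 0.112) and with Ly6a (r = 0.562, permutation, adjusted p = 0.130), and neither passed. Without the farthest libraries these were 0.354 and 0.425, and within groups 0.684 and 0.666. No protein level was measured, and these are relations of RNA across cells sorted on the same proteins.

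**Figure D4:**
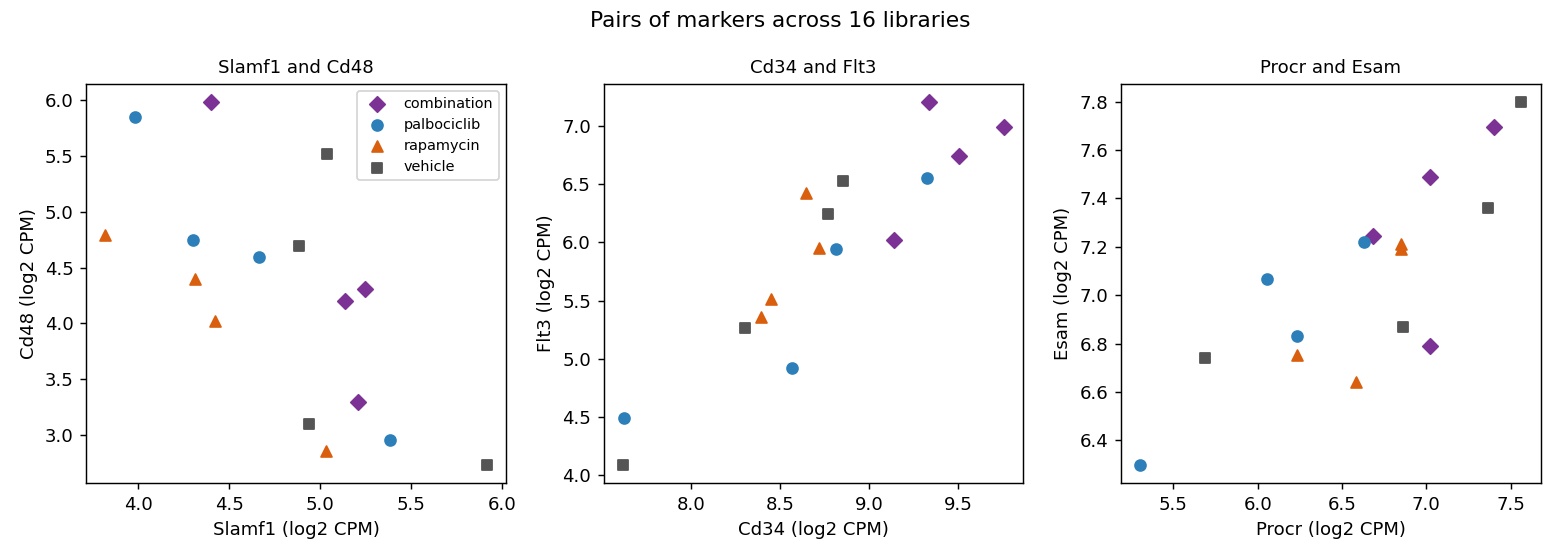
Levels in log2 CPM of Slamf1 and Cd48, Cd34 and Flt3, and Procr and Esam, with a point for each of the 16 libraries, marked by group. Slamf1 and Cd48 run in opposite directions (r = -0.666), and the other pairs run together (r = 0.914 and r = 0.809).

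**Figure D5:**
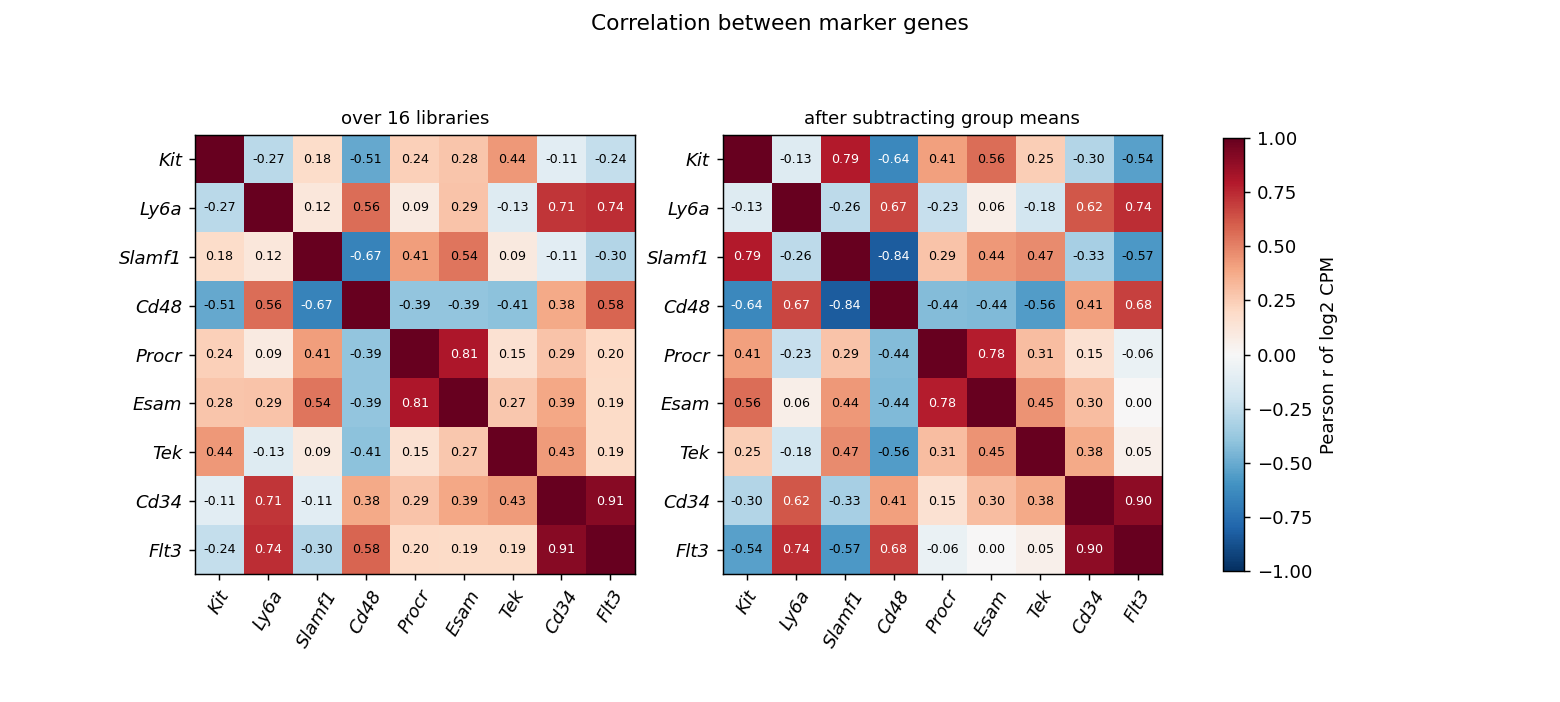
Pearson's r of log2 CPM over 16 libraries for all 36 pairs of the 9 genes, over all libraries (left) and after subtraction of group means (right), with colour and number for r. Over all libraries Cd34, Flt3 and Ly6a are positively related to each other, and Cd48 is negatively related to Slamf1, while its r of -0.508 with Kit did not pass (permutation, adjusted p = 0.186).

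The opposition of Slamf1 and Cd48 went with the neutrophil share of the libraries, the summed share of 15 genes. Some of these genes are also expressed by myeloid progenitors, and the list did not move as 1. For the combination against vehicle 9 of the 15 were above and 6 below 0. In a family of 18 relations added after the data were seen, the log2 neutrophil share correlated with Slamf1 at r = -0.710 (permutation p = 0.0018, adjusted p = 0.0163; rho = -0.703, adjusted p = 0.0256) and with Cd48 at r = 0.688 (permutation p = 0.0039, adjusted p = 0.0236; rho = 0.685, adjusted p = 0.0256). Without the farthest libraries these were -0.760 and 0.587, and within groups -0.798 and 0.696. Kit gave r = -0.547 (permutation p = 0.0293, adjusted p = 0.0878), which did not pass, and -0.736 within groups. Ly6a gave 0.013 and Cd34 -0.003. Among the genes closest in pattern to Cd48 were AB124611 (r = 0.910) and Erp29 (r = 0.888).

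The interferon share went with Cd34, Ly6a and Flt3. It correlated with Cd34 at r = 0.742 (permutation p = 0.0010, adjusted p = 0.0163; rho = 0.718, adjusted p = 0.0256), with Ly6a at r = 0.654 (permutation p = 0.0063, adjusted p = 0.0283; rho = 0.518, adjusted p = 0.123) and with Flt3 at r = 0.623 (permutation p = 0.0104, adjusted p = 0.0373; rho = 0.538, adjusted p = 0.123). By rank, only Cd34 of these genes passed. Without the farthest libraries the values were 0.694, 0.519 and 0.461. Within groups they were 0.487, 0.413 and 0.472, below the pooled values for all 3 genes. What neutrophil and interferon genes contribute to the levels of the markers was not tested.

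The ligands of the receptors ranged from no counts to a level near that of Flt3 itself. Proc, which encodes the protein C bound by EPCR, had no counts in any library, where a count of 0 allows up to 0.196 to 0.296 CPM on the raw library totals (3 counts per library, counting error alone), and Kitl, which encodes the ligand of Kit, averaged 0.319 TPM. Flt3l, the ligand of Flt3, was at 20.9 TPM and Angpt1, the activating ligand of Tek, at 21.7 TPM. Angpt1 had 104 ± 34.6 CPM in rapamycin libraries and 50.9 ± 15.1 CPM in vehicle libraries, a log2 difference of 1.03 ± 0.36 (edgeR adjusted p = 0.513). Stromal cells of the marrow, another source of Angpt1, have markers that were above 0 in the same comparison in 4 of 4 genes tested, with a median log2 difference of 2.12, and none passed. The 5 genes of that list held 0.00891% to 0.0341% of counts in rapamycin libraries and 0.00170% to 0.0162% in vehicle libraries, and their part in the Angpt1 value was not tested. None of the 4 ligands tested passed in any comparison.

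Of the genes that act with EPCR, F2r encodes the thrombin receptor PAR1 and S1pr1 a receptor for sphingosine 1-phosphate. F2r had 160.1 ± 44.6 CPM in combination libraries and 68.6 ± 12.0 CPM in vehicle libraries, a log2 difference of 1.22 ± 0.25 (edgeR adjusted p = 0.218). S1pr1 had 51.7 ± 14.7 CPM in palbociclib libraries and 110.1 ± 56.9 CPM in vehicle libraries, a log2 difference of -1.09 ± 0.32 (edgeR adjusted p = 0.323). In that comparison F2r was at 0.51 and Thbd, which encodes thrombomodulin, at 0.51. Of 3 such genes tested, none passed in any comparison.

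The SLAM relatives of Slamf1 and Cd48, 7 tested, gave no call. Cd244a, which encodes the receptor for CD48, had 44.6 ± 15.3 CPM in combination libraries and 7.75 ± 3.91 CPM in rapamycin libraries, a log2 difference of 2.52 ± 0.75 (edgeR adjusted p = 0.278). In that comparison 4 of the 7 were above and 3 below 0, with a median of 0.06. Of 20 genes that carry signals from Kit, Flt3 and Tek, such as the adaptors Gab2 and Shc1 and the kinase subunit Pik3r1, none passed in any comparison, and their median log2 difference from vehicle was -0.04 for the combination, 0.00 for palbociclib and 0.08 for rapamycin. Pik3r1 had 101.7 ± 11.6 CPM in rapamycin libraries and 70.4 ± 13.3 CPM in vehicle libraries (log2 difference 0.53 ± 0.22, edgeR adjusted p = 0.594).

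Other surface receptors of HSCs set the background for the 9. Of 38 tested, 21 were above and 17 below 0 for the combination against vehicle, with a median of 0.05, and none passed. An unadjusted p under 0.05 was met by 10 of the 38, against 10.5% of all genes. For palbociclib against vehicle 16 were above and 22 below 0, with a median of -0.16 and 3 under 0.05 without adjustment, against 9.51% of all genes. For rapamycin against vehicle 19 were above and 19 below, with a median of -0.02 and 5 under 0.05, against 7.65%. The combination against palbociclib had 27 above and 11 below 0, with a median of 0.17 and 3 under 0.05, against 2.85%. The combination against rapamycin had 21 above and 17 below 0, with a median of 0.03 and 8 under 0.05, against 9.79%. Cd82, which encodes a tetraspanin of dormant HSCs, had 54.3 ± 12.3 CPM in combination libraries, 64.7 ± 14.2 CPM in palbociclib libraries and 142 ± 55.7 CPM in vehicle libraries. Its log2 difference from vehicle was -1.39 ± 0.31 for the combination (edgeR adjusted p = 0.218) and -1.14 ± 0.31 for palbociclib (adjusted p = 0.275).

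Of these 38 genes, the 1 that passed the test in any of the 5 comparisons was Selp, which encodes P-selectin and is known to increase on HSCs with age. It had 216 ± 24.3 CPM in combination libraries and 62.0 ± 17.5 CPM in rapamycin libraries, a log2 difference of 1.80 ± 0.25 (edgeR adjusted p = 0.0197). Rapamycin libraries differed from vehicle libraries, which had 153 ± 49.2 CPM, by -1.30 ± 0.25 on the log2 scale (edgeR adjusted p = 0.222). Selp and Irf7 are among the 5 genes called for the combination against rapamycin, and that count was 0 without rapamycin 1, 2, 3 or 4 or combination 3 or 4, each left out alone. Of 6 HSC identity genes, all 6 were below 0 for the combination against vehicle (median -0.24) and for palbociclib against vehicle (median -0.23). For rapamycin against vehicle 4 were above and 2 below 0, with a median of 0.53. None passed in these comparisons. For the combination against rapamycin 2 were above and 4 below 0, with a median of -0.59, and none passed. The one of smallest p, Hlf, had 58.9 ± 22.8 CPM in combination libraries and 121 ± 17.6 CPM in rapamycin libraries, a log2 difference of -1.04 ± 0.30 (edgeR adjusted p = 0.265).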

How the data were processed

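RNA of sorted HSCs was measured in 16 libraries, grouped by their titles, 4 per group. The authors deposited expected counts per gene, already whole, and log2(TPM + 1) values of the same 50686 genes. Undoing the log2 gave TPM summing to 999999 to 1000001 per library. The submitters' processing notes list STAR 2.5.3a, RSEM 1.3.0, SAMtools 1.3 and the mm10 build and assign them no roles. Neither annotation release nor strand setting is stated in these sources, so reads of overlapping or antisense genes cannot be told apart. GENCODE M21 named 50376 IDs.

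Expected counts, as deposited, were fitted with edgeR 4.0.16 in R 4.3.3. filterByExpr (minimum count 10, minimum total 15) kept 15308 genes with 99.5% to 99.9% of counts. TMM factors ran from 0.889 to 1.14. The model had a term for each treatment and used the 16 libraries together (12 residual degrees of freedom, common dispersion 0.311). Each contrast had a quasi-likelihood F test, with p-values adjusted after Benjamini and Hochberg across all genes that passed the filter. Fold changes have the group named first on top, SE is the fitted change over the square root of F, and log2 CPM used a prior count of 2. Correlations used 100000 permutations, two-sided. The procedure was tested on simulated data.

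The 24 within-group pairs of libraries correlated at 0.851 to 0.973, with a chi-square per degree of freedom of at least 25.2, so none was a repeat within sampling noise. All 9 genes are named in each comparison. Of each other list, up to 3 genes of smallest edgeR p per comparison may be named, and for each of the 9 the 3 protein-coding genes of highest correlation. That rule as first written covered comparisons against vehicle, and the combination against each drug was added after the data were seen. The genes and lists were chosen with earlier results of these data known. Alternatives were DESeq2 1.42.0, limma 3.58.1 on log2(TPM + 1) and log2(TPM + 0.1), with genes at a TPM of at least 1 in 4 libraries or without that filter, other size factors, no count filter, fewer groups, a replicate block, the neutrophil share as covariate, leaving out each library, and, added after the data were seen, leaving out vehicle 3, vehicle 4 and rapamycin 3. Promoter windows came from a RefSeq table that holds 7 of the 9 genes. Some genes of the lists are not reported here.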

Additional observations from a re-analysis of the deposited data

Results flagged for a closer look

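Slamf1 had 60.4 CPM in vehicle 1, against 29.5 to 32.8 CPM in the other vehicle libraries, a gap of 0.893 of the range of the group. Slamf1 had 21.1 CPM in combination 3, against 35.1 to 38.0 CPM in the other combination libraries, a gap of 0.830 of the range. Both gaps exceeded Dixon's critical value for 4 samples, 0.829. In all, 36 groups (9 genes in 4 treatments) were examined, and chance alone picks out about 1 in 20. The neutrophil share was 6.24% in combination 3, the highest of its group, and 1.22% in vehicle 1, the lowest of its group, and its part in these values was not tested.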

How the results depend on the processing

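None of the 9 genes was called in the 5 comparisons of groups under any alternative, except Ly6a for the combination against rapamycin, called by DESeq2 and by edgeR on those groups alone. Of 50 results on the 9 genes, 32 kept their direction under all alternatives run, 25 or 26 for each. Besides the comparisons of groups, the 50 include the interaction for Ly6a, Slamf1 and Procr and the averaged contrasts for Cd34 (palbociclib) and Kit (rapamycin). Those are the genes with an unadjusted edgeR p under 0.05 in these contrasts, and all of them kept their direction, which raises the count. DESeq2, which also tested another set of genes (30736, against 15308 in edgeR), called 207 genes for the combination against vehicle, 137 for palbociclib against vehicle, 115 for rapamycin against vehicle, 20 for the combination against palbociclib, 205 for the combination against rapamycin, 554 for palbociclib averaged over rapamycin, 61 for rapamycin averaged over palbociclib and 45 for the interaction, where edgeR called 0, 0, 1, 0, 5, 42, 0 and 0. For the combination against rapamycin, the count was 16 with no count filter, 56 with only those groups, 30 with the neutrophil share as covariate, 13 with limma on log2(TPM + 1), 12 on log2(TPM + 0.1) and 0 without the TPM filter. For palbociclib averaged over rapamycin it was 16, 16 and 8 with these limma settings. For rapamycin against vehicle it was 0 with only those groups and 0 with limma without a filter, for the combination against palbociclib 1 with limma on log2(TPM + 1), with and without the filter, for rapamycin averaged over palbociclib 23 with no count filter and 2 with unfiltered limma, and for the interaction 3 with RLE size factors and 4 with no count filter. Without vehicle 3, vehicle 4 and rapamycin 3, it was 1 for the combination against vehicle, 1 for palbociclib against vehicle, 14 for palbociclib averaged over rapamycin and 3 for the interaction. The cause was not tested.

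Leaving out each library in turn gave 0 to 16 calls for the combination against rapamycin, 0 to 2 for rapamycin against vehicle, 6 to 58 for palbociclib averaged over rapamycin and 0 to 5 for the interaction, and 0 in the other comparisons. For the combination against rapamycin it was 16 without vehicle 3, 10 without palbociclib 2, 2 without combination 1 and 1 without combination 2, and 0 without any other single rapamycin or combination library. For rapamycin against vehicle it was 2 without palbociclib 1 or rapamycin 4 and 0 without rapamycin 2, and for the interaction 5 without vehicle 3 and 1 without vehicle 4 or rapamycin 4. For palbociclib averaged over rapamycin it was at most 23 without vehicle 1, palbociclib 3, palbociclib 4 or any 1 rapamycin or combination library.

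Whether the replicate number pairs the libraries was not settled. Same-numbered libraries of different groups correlated at -0.301 to 0.483 in their deviations, above 0.1 in 9 of 24 pairs. Libraries of different number were not compared in this way, so these values cannot decide it. With the replicate block, edgeR called 1 gene for palbociclib against vehicle, 11 for the combination against rapamycin and 3 for rapamycin averaged over palbociclib, and none of the 9 genes.

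Directions turned for small differences. Without vehicle 3, vehicle 4 and rapamycin 3, palbociclib against vehicle gave Kit -0.22 and Flt3 0.17, and the combination against vehicle gave Kit -0.050, Procr -0.41 and Esam -0.25. With the neutrophil share as covariate, Cd48 was -0.35 for palbociclib against vehicle and 0.38 for the combination against palbociclib, where Kit was -0.043 and Tek -0.079. For rapamycin against vehicle, Cd48 was 0.12 with limma on log2(TPM + 1), 0.14 on log2(TPM + 0.1) and 0.12 without the filter.

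With each library left out, palbociclib against vehicle ran from -0.11 to 0.59 for Kit, -0.96 to 0.13 for Ly6a, -0.14 to 1.09 for Cd48, -0.031 to 0.48 for Cd34 and -0.53 to 0.26 for Flt3, which was above 0 without vehicle 2, vehicle 4, palbociclib 1 or palbociclib 2. Rapamycin against vehicle ran from -0.56 to 0.41 for Cd48 (above 0 without vehicle 4 or rapamycin 1), -0.10 to 0.26 for Cd34 and -0.23 to 0.42 for Flt3 (below 0 without vehicle 1, vehicle 3 or rapamycin 2). The combination against vehicle ran from -0.33 to 0.083 for Slamf1, -0.44 to 1.03 for Cd48, -0.23 to 0.26 for Procr and -0.050 to 0.33 for Esam, the last 2 below 0 without vehicle 3, vehicle 4 or combination 2. The combination against palbociclib ran from -0.86 to 0.50 for Cd48 (above 0 without palbociclib 3 or combination 1, 2 or 4) and -0.19 to 0.48 for Tek (below 0 without palbociclib 1, palbociclib 3 or combination 2). The combination against rapamycin ran from -0.18 to 0.90 for Cd48 (below 0 without combination 3) and -0.26 to 0.16 for Tek (above 0 without rapamycin 1 or combination 3). With 4 libraries per group and a biological coefficient of variation of 55.8%, a difference that did not pass is not shown to be absent.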

Other observations

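For genes with the most similar pattern over the 16 libraries, Procr was followed most closely by Fam174a (r = 0.951, and 0.947 within groups), Slamf1 by Exoc3l (r = 0.908, and 0.895 within groups), Esam by Maged1 (r = 0.898, and 0.911 within groups) and Tek by Zfand1 (r = 0.876, and 0.838 within groups). These were the highest of 11011 protein-coding genes, and the points share library, depth and group.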
